A study of Rattus norvegicus with 12 samples.

Results

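The genes Mapt, App, Aplp1, Psen2, Bace1, Gsk3b, Cdk5 and Cdk5r1 encode the microtubule-binding protein tau, the amyloid precursor protein and 1 of its relatives, parts of the proteases that process it, and kinases that phosphorylate tau. They were chosen by name and not by their values, although earlier results of these data were known. All 8 were found among the 17494 genes counted. No synuclein gene is among the 8, and synuclein genes were followed in a list of related genes.

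RNA was sequenced from the hippocampus (labelled as brain) of 12 male Long Evans rats of wild-type genotype (WT), 1 library per rat. All 12 rats had been exposed to 3 blasts, beginning at 10 weeks of age, and were sacrificed 29 weeks after blast. From week 2 after blast, 6 rats (blast-boldine, labelled boldine-treated) ate chow with boldine, an alkaloid of the boldo tree, at 500 mg/kg, while the 6 blast-controls (labelled untreated) ate the same chow without it. Rats without blast were not analysed here, so blast is shared by both groups and diet is the labelled difference between them. The tissue was the whole hippocampus of 1 sex at 1 dose and 1 time, and fewer cells of a type and less RNA per cell cannot be told apart in such samples.

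Tau binds and stabilizes microtubules, chiefly in axons, and detaches from them when it is heavily phosphorylated. Gsk3b encodes glycogen synthase kinase 3 beta, and Cdk5 encodes a kinase that is active in neurons once bound to an activator such as the product of Cdk5r1. The amyloid precursor protein is cut by the beta-secretase encoded by Bace1 and then by gamma-secretase, whose catalytic subunit is a presenilin such as that of Psen2, which releases amyloid-beta. Tau phosphorylation and amyloid-beta are studied after head injury because both accumulate in Alzheimer's disease, and the comparison addressed whether the RNA of these genes differed with the diet.

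Depth was between 10148474 and 40850106 counts in 11 rats and was 74008 counts in blast-control rat 6. In rat 6, 1 count was worth 15.8 CPM (counts scaled to a common library size with TMM factors), and 3 counts, taken as the smallest detected value, were worth 47.5 CPM, against 0.0658 to 0.307 CPM in the other rats. The tests of the diet are therefore given with and without rat 6. The library names carry suffixes from 1 to 6, each on 2 libraries. Suffixes 1 to 3 are all on blast-controls and 4 to 6 all on blast-boldine rats, so suffix and diet cannot be told apart. The suffixes allowed 4 ways of splitting the rats into 2 sets of 6 in which rat numbers rise with the suffix. The split that explained most of principal component 1 in 11 rats, 94.8% of it (treatment explained 1.58%), put rats 1, 7, 9, 20, 32 and 35 in set A and rats 4, 5, 6, 12, 17 and 19 in set B, with 3 rats of each treatment in each set. The labels do not name these sets as batches. All neuronal, hippocampal, oligodendrocyte, astrocyte, microglial and endothelial markers examined were detected in the 11 rats, and the summed levels of each list overlapped between the treatments (for the 6 pan-neuronal markers, 3910 to 4970 CPM in blast-boldine rats and 3260 to 5220 CPM in blast-controls without rat 6, against 15800 CPM in rat 6). The 5 choroid plexus markers summed to between 9.69 and 1120 CPM in the 11 rats and had no count in rat 6. Between the sets, the 6 oligodendrocyte markers summed to a mean of 5990 CPM in set A and 3690 CPM in set B, the 6 microglial markers to 280 CPM and 139 CPM, and the 5 endothelial markers to 110 CPM and 252 CPM.

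All 8 genes were expressed in the 11 deeply sequenced rats, and their levels per kb of exon spanned a wide range. App was the highest, at 534 ± 108 CPM per kb (SD, n = 11), and Aplp1 followed at 395 ± 78.3 CPM per kb. These neighbours were not separated, since App was above Aplp1 in 7 of 11 rats. Mapt, at 131 ± 10.1 CPM per kb, lay below Aplp1 and above Cdk5r1 in all 11 rats. Cdk5r1 at 80.9 ± 10.9 CPM per kb and Gsk3b at 76.8 ± 25.8 CPM per kb overlapped, as did Cdk5 at 44.4 ± 13.7 CPM per kb with both Gsk3b and Bace1. Bace1, at 40.4 ± 7.66 CPM per kb, lay above Psen2 in all 11 rats. Psen2 was the lowest of the 8, at 11.4 ± 1.49 CPM per kb.

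**Figure D1:**
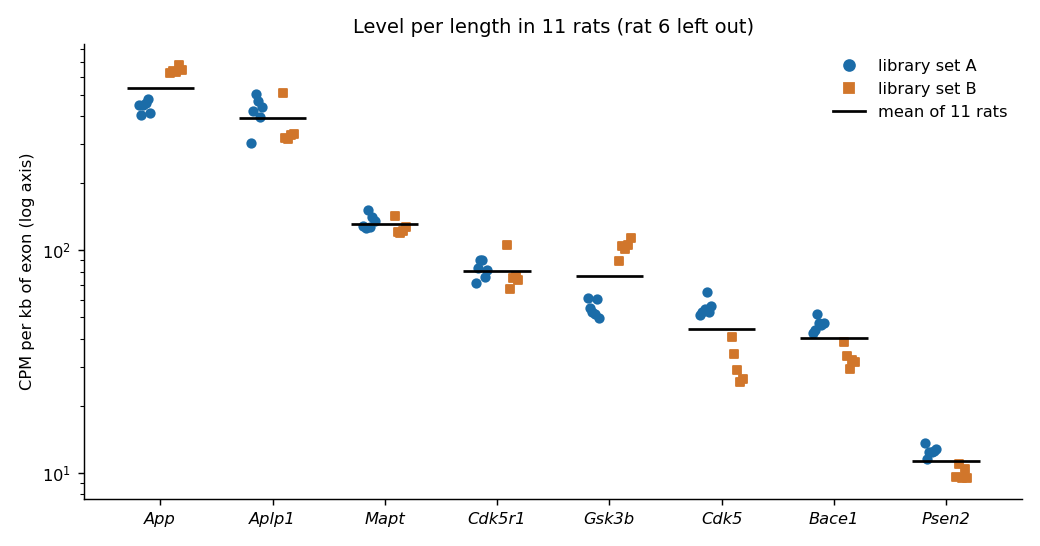
Level of each gene in CPM per kb of exon (log axis) in the 11 rats other than rat 6, by library set, with the mean as a line. App averaged 534 and Psen2 11.4 CPM per kb, and the sets do not overlap for App, Gsk3b, Cdk5, Bace1 and Psen2.

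None of the 8 genes passed the test between blast-boldine rats and blast-controls. By the quasi-likelihood test of edgeR, with p adjusted after Benjamini and Hochberg over 12325 genes, the adjusted p was 1 for each of them, and 0 of the 8 had an unadjusted p under 0.05. Over all genes tested, edgeR called 0 after adjustment and 132 (1.07%) at an unadjusted p under 0.05. DESeq2 called 0 after adjustment and 85 of 15690 (0.542%) without it, again with 0 of the 8. Without rat 6, edgeR called 0 after adjustment and 175 of 12529 (1.4%) without it, and 0 of the 8 were among them. The CPM of the groups overlapped for all 8 genes with and without rat 6, and groups that did not overlap were found for 0.0811% of all genes tested with rat 6 and for 0.146% without it. In the 12 rats, 1 of the 8 genes was higher and 7 were lower in blast-boldine rats, with a median log2 fold change of -0.0488 against 0.00456 for all genes tested, and without rat 6, 2 were higher and 6 lower, with a median of -0.071 against -0.000971. The split also depended on other rats, with 5 higher and 3 lower without blast-control rat 9 (median 0.00331) or blast-boldine rat 12 (median 0.0115), and 4 higher and 4 lower without blast-boldine rat 19 (median -0.0013).

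**Figure D2:**
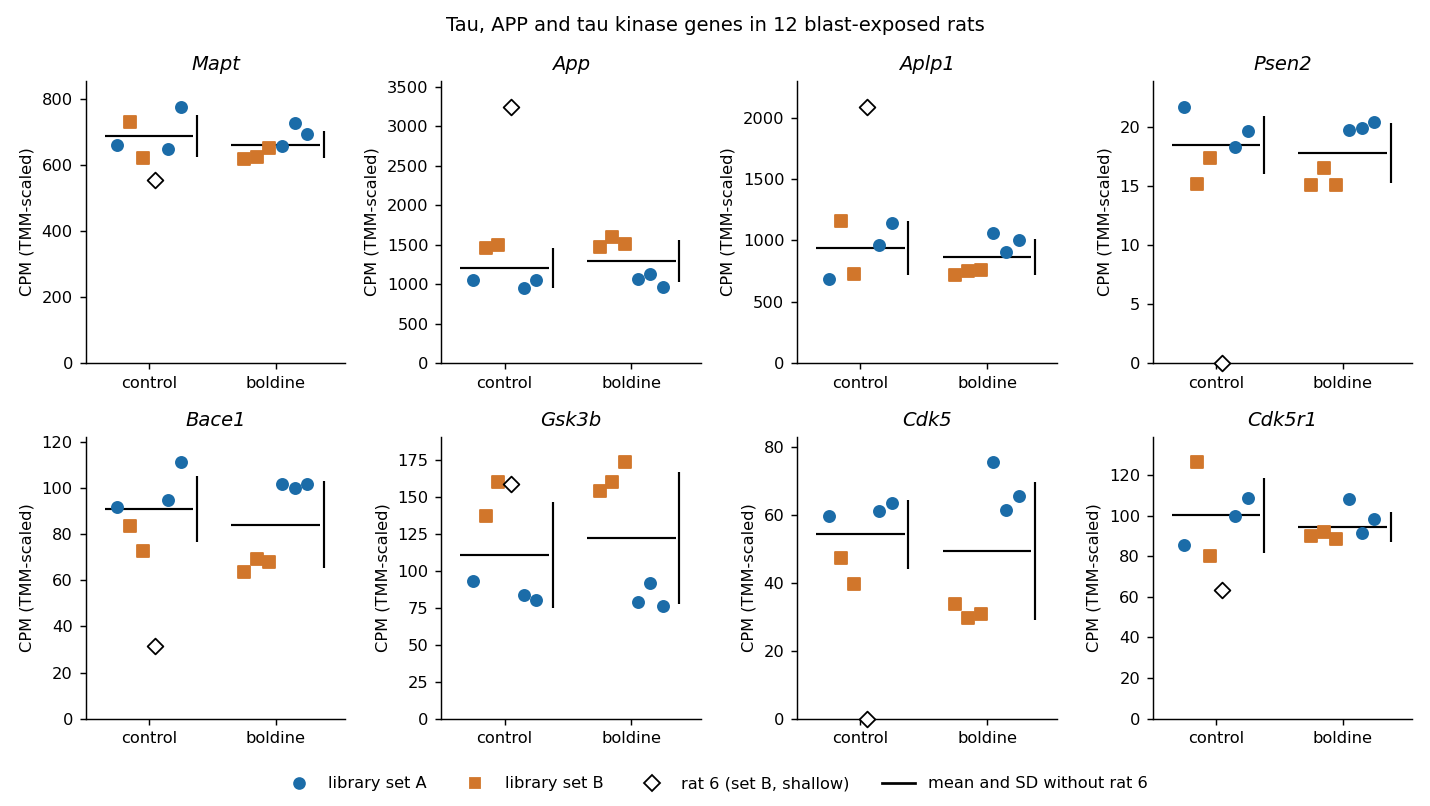
CPM of each gene in each of the 12 rats (axes start at 0), by treatment, with symbols for the library set and an open diamond for rat 6; lines give the mean and SD without rat 6. Within both treatments set A and set B separate for App, Psen2, Bace1, Gsk3b and Cdk5, and rat 6 lies at 0 for Psen2 and Cdk5.

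Mapt, the gene of tau itself (chr10:89138648-89236135, plus strand, mRatBN7.2, with 5147 exon bases counted), was the least variable of the 8 in the 11 rats, with a coefficient of variation of 7.71%. Its lowest, median and highest levels were 617, 655 and 727 CPM in blast-boldine rats and 554, 656 and 777 CPM in blast-controls. The lowest value, 554 CPM, was that of rat 6, below the 617 to 777 CPM of the other 11 rats. It rested on 35 counts (95% exact Poisson interval 386.1 to 771 CPM, which covers counting error only), and only this interval overlapped the other rats. Blast-boldine rats averaged 662 ± 42.2 CPM (SD, n = 6) and the blast-controls without rat 6 averaged 688 ± 63.9 CPM (n = 5). In edgeR the log2 fold change was -0.01 (SE 0.12, 95% interval -0.26 to 0.24) in 12 rats and -0.06 (SE 0.09, -0.25 to 0.14) without rat 6. Permuting the log2 CPM over all assignments of rats to groups gave an exact two-sided p of 0.974 for the 12 rats and 0.442 without rat 6, where 0.00216 is the smallest p either design allows.

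Gsk3b, a main tau kinase (chr11:62504312-62647785, minus strand, 1524 exon bases), had 2 levels in both groups. With boldine its level ran from 76.0 CPM through a median of 123 CPM to 173 CPM, and in blast-controls from 80.1 CPM through 115 CPM to 160 CPM. Every rat of set B, of either diet, was above every rat of set A. The log2 fold change for boldine in edgeR was 0.10 (SE 0.27, 95% interval -0.48 to 0.68) in 12 rats and 0.14 (SE 0.28, -0.48 to 0.76) without rat 6, and the interval was narrowed to between -0.16 and 0.19 around 0.02 by a term for the set without rat 6. The exact permutation p was 0.911 with rat 6 and 0.719 without it.

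Cdk5, the neuronal tau kinase (chr4:10754687-10759169, plus strand, 1163 exon bases), showed the widest relative spread among blast-boldine rats, with a coefficient of variation of 41.1%. Blast-boldine rats had 29.7 CPM at the lowest, 47.6 CPM at the median and 75.4 CPM at the highest, and the 5 blast-controls without rat 6 had 39.7, 59.6 and 63.3 CPM. Rat 6 had 0 counts, where the floor of 3 counts is 47.5 CPM and the exact Poisson interval of 0 counts reaches 58.4 CPM, so Cdk5 at the levels of the other set B rats was not detectable at its depth. The blast-boldine values lay on both sides of the control range, 3 below it and 2 above it. The log2 fold change in edgeR was -0.07 (SE 0.31, 95% interval -0.73 to 0.60) in 12 rats and -0.14 (SE 0.27, -0.72 to 0.44) without rat 6. The exact permutation p was 0.758 with rat 6, where the difference in mean log2 CPM of 1.25 rests on the value assigned to 0 counts, and 0.478 without it, where the difference was -0.22.

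Cdk5r1, which encodes the p35 activator of CDK5 (chr10:65484266-65485467, plus strand, a single exon of 1202 bases), varied less than the kinase. Its lowest, median and highest levels were 88.6, 91.6 and 108 CPM in blast-boldine rats and 63.4, 92.8 and 126 CPM in blast-controls. Rat 6 was the lowest and had 4 counts (17.3 to 162.2 CPM). All 6 blast-boldine rats lay within the range of the 5 other blast-controls, 80.2 to 126 CPM. The log2 fold change in edgeR was -0.05 (SE 0.14, 95% interval -0.35 to 0.26) in 12 rats and -0.08 (SE 0.12, -0.35 to 0.18) without rat 6. The permuted difference in mean log2 CPM was 0.04 with rat 6, of the opposite sign to the fitted value (exact p = 0.792), and -0.07 without it (exact p = 0.595).

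App, the gene of the amyloid precursor protein (chr11:24020663-24236429, minus strand, 2340 exon bases), was lower in blast-boldine rats with rat 6 and higher without it, passing the test in neither case. With boldine its level ran from 967 CPM through a median of 1299 CPM to 1596 CPM, and in blast-controls from 951 CPM through 1260 CPM to 3247 CPM. Rat 6 alone was above 1596 CPM, from 205 counts (2818 to 3723 CPM). The log2 fold change in edgeR was -0.24 (SE 0.28, 95% interval -0.85 to 0.37) in 12 rats and 0.10 (SE 0.18, -0.30 to 0.49) without rat 6. For App the exact permutation p was 0.768 with rat 6 and 0.578 without it. The sum of the pan-neuronal markers was also highest in rat 6, and the part of these markers in the App value was not tested.

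Aplp1, a neuronal relative of App (chr1:85696888-85707143, minus strand, 2273 exon bases), had the smallest unadjusted p of the 8 genes in 12 rats. Blast-boldine rats had 716 CPM at the lowest, 831 CPM at the median and 1059 CPM at the highest, and blast-controls had 689, 1053 and 2091 CPM. Rat 6 was again the highest, with 132 counts (1749 to 2479 CPM), and the 5 other blast-controls ranged from 689 to 1157 CPM and enclosed all blast-boldine values. The log2 fold change in edgeR was -0.36 (SE 0.25, 95% interval -0.89 to 0.17, unadjusted p = 0.165, adjusted p = 1) in 12 rats. Without rat 6 it was -0.12 (SE 0.17, -0.48 to 0.25, unadjusted p = 0.497, adjusted p = 1). For Aplp1 the exact permutation p was 0.284 with rat 6 and 0.589 without it.

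Bace1, the beta-secretase gene (chr8:46142124-46164424, plus strand, 2158 exon bases), overlapped between the groups. Its lowest, median and highest levels were 63.5, 84.5 and 102 CPM in blast-boldine rats and 72.6, 91.8 and 111 CPM in the 5 blast-controls without rat 6. Rat 6 had 2 counts (3.84 to 114.4 CPM), fewer than the 3 taken as detected. The 3 lowest of the 11 rats were blast-boldine rats of set B, and the highest was a blast-control of set A. The log2 fold change in edgeR was -0.05 (SE 0.20, 95% interval -0.48 to 0.37) in 12 rats and -0.12 (SE 0.16, -0.47 to 0.24) without rat 6. The permuted difference in mean log2 CPM was 0.12 with rat 6, of the opposite sign to the fitted value (exact p = 0.771), and -0.13 without it (exact p = 0.478).

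Psen2, 1 of the presenilin genes (chr13:91967940-91984632, minus strand, 1594 exon bases), was too low in every other rat to be detectable at the depth of rat 6. With boldine its level ran from 15.1 CPM through a median of 18.1 CPM to 20.4 CPM, and in the 5 blast-controls without rat 6 from 15.2 CPM through 18.3 CPM to 21.7 CPM. Rat 6 had 0 counts, and both its floor of 47.5 CPM and the upper Poisson limit of 58.4 CPM lie above the level of Psen2 in any other rat. Both groups covered nearly the same range. The log2 fold change in edgeR was -0.02 (SE 0.18, 95% interval -0.42 to 0.37) in 12 rats and -0.06 (SE 0.13, -0.35 to 0.23) without rat 6. The exact permutation p was 0.673 with rat 6, where the difference of 1.16 in mean log2 CPM rests on the value assigned to 0 counts, and 0.641 without it, where the difference was -0.05.

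The library sets separated more than the diet did for most of the 8 genes. In 11 rats, the sets did not overlap for 5 of the 8, namely App, Psen2, Bace1, Gsk3b and Cdk5, and for 49.1% of all genes tested. The sets were assigned from the expression of these libraries, and these values are therefore a description without a test. Gsk3b was 1.87-fold higher in set B (mean 157 ± 13.2 CPM, n = 5) than in set A (83.8 ± 6.93 CPM, n = 6), and App was 1.46-fold higher in set B. Cdk5 was 1.80-fold, Bace1 1.41-fold and Psen2 1.26-fold higher in set A. The set accounted for 94.4% of the variance of log2 CPM of Gsk3b, 94.0% of App, 83.4% of Cdk5, 83.2% of Bace1 and 81.6% of Psen2, while treatment accounted for 0.0736% to 2.19% more in these genes. For Mapt, Aplp1 and Cdk5r1 the set accounted for 22.4%, 18.2% and 3.02%, and treatment for 4.23%, 1.85% and 2.77% more. The oligodendrocyte, microglial and endothelial marker sums differed between the same sets, and their part in these differences was not tested.

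With the set as a term and without rat 6, the intervals of the boldine effect were narrower for all 8 genes and still included 0. In this fit edgeR called 0 of 12529 genes after adjustment and 670 (5.35%) at an unadjusted p under 0.05, with 0 of the 8 among them, and the adjusted p of the 8 ranged from 0.911 to 0.986. DESeq2 with the same term and rats called 0 after adjustment and 4.69% without it, and edgeR with the term in all 12 rats called 0 after adjustment and 3.85% without it, with 0 of the 8 among either. App had a log2 fold change of 0.04 (SE 0.07), and its 95% interval bounded the ratio of boldine to control between 0.934 and 1.14. The corresponding bounds were 0.869 and 1.07 for Mapt, 0.898 and 1.14 for Gsk3b, 0.774 and 1.08 for Cdk5, and 0.807 and 1.11 for Cdk5r1. Among the other genes of amyloid precursor processing they were 0.747 and 1.15 for Aplp1, 0.844 and 1.05 for Bace1, and 0.867 and 1.11 for Psen2. Exact permutations within the sets without rat 6, an alternative added after the data were seen, gave p between 0.16 (App) and 0.65 (Cdk5r1). The smallest p of the 200 assignments is 0.005. The difference permuted was pooled over the sets, and without rat 6 the blast-controls were fewer in set B than in set A. The set difference therefore enters these p, and they do not test the diet within the sets alone.

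**Figure D3:**
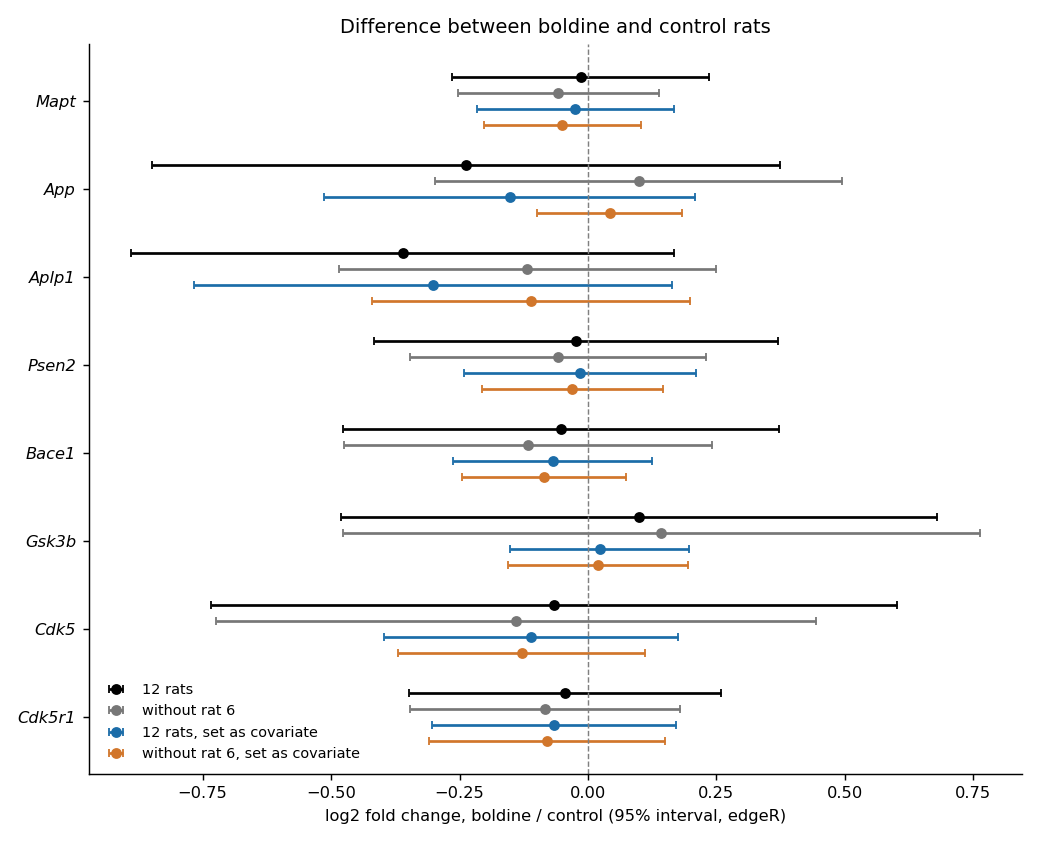
Log2 fold change of boldine over control with its 95% interval from edgeR for each gene, in 12 rats, without rat 6, and each again with the library set as a covariate. All 32 intervals include 0, and App lies at -0.24 with rat 6 and at 0.10 without it.

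The direction within the sets was the same for some genes and opposite for others. App was 0.05 higher on the log2 scale in the blast-boldine rats of set A and 0.04 higher in those of set B, leaving out rat 6. Cdk5 was 0.13 higher in set A and 0.47 lower in set B, where the blast-boldine rats had 33.7, 29.7 and 30.7 CPM and the 2 deeply sequenced blast-controls had 47.4 and 39.7 CPM. In set A the blast-boldine rats had 75.4, 61.5 and 65.5 CPM of Cdk5 and the blast-controls 59.6, 61.2 and 63.3 CPM. In set B the groups did not overlap for Cdk5 and Bace1, 2 of the 8 genes, against 22.4% of all genes tested, and in set A they overlapped for all 8, against 6.89% of genes that did not. A term for the difference between the sets in the boldine effect, added after the data were seen, was -0.59 (SE 0.16, unadjusted p = 0.00285, adjusted p = 0.881) for Cdk5 by the same edgeR test and adjustment. Cdk5 was the 1 gene of the 8 with an unadjusted p under 0.05 for this term, against 5.64% of all genes tested, and 0 genes passed after adjustment. For the other 7 genes the unadjusted p of the edgeR term ranged from 0.114 (Bace1) to 0.944 (App).

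Ratios of the CPM of 2 genes within a library do not depend on how the libraries are scaled. They were compared for activator to kinase, for protease to substrate and for the family members. The tests used log2 CPM with a prior count of 2, on which the log2 ratios depend where a gene has 0 counts, as in rat 6. For Cdk5r1 to Cdk5 the ratio averaged 2.18 ± 0.782 (SD, n = 6) with boldine and 1.90 ± 0.480 (n = 5) in the blast-controls without rat 6. It ranged from 1.43 to 1.72 in set A and from 2.02 to 3.09 in set B, and it was not defined in rat 6. Within set B the blast-control rats had 2.67 and 2.02 and the blast-boldine rats 2.67, 3.09 and 2.89. The exact permutation p of the log2 ratio was 0.703 with rat 6, where the log2 ratio rests on the value assigned to 0 counts of Cdk5, and 0.574 without it.

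The ratio of Bace1 to App was 0.0702 ± 0.0293 in blast-boldine rats (n = 6) and 0.0797 ± 0.0255 in blast-controls without rat 6 (n = 5). It ranged from 0.0878 to 0.105 in set A and from 0.0430 to 0.0572 in set B. In set B the 3 blast-boldine rats, at 0.0430 to 0.0453, lay below both blast-controls, at 0.0572 and 0.0485, and in set A the groups overlapped. Among single genes, the groups did not overlap in set B for 22.4% of all genes tested. The exact permutation p was 0.801 with rat 6, 0.509 without it and 0.09 within the sets without it. The last p also permutes a difference pooled over the sets and does not test the diet within the sets alone. The ratio of Psen2 to App followed the sets in the same way, from 0.0177 to 0.0211 in set A and from 0.0100 to 0.0116 in set B. In set B the blast-boldine rats, at 0.01003 to 0.01037, also lay below both blast-controls, at 0.01039 and 0.01162, and in set A the groups overlapped. The exact permutation p for Psen2 to App was 0.777 with rat 6, where the log2 ratio rests on the value assigned to 0 counts of Psen2, and 0.597 without it. The ratio of Aplp1 to App overlapped between the sets, at 0.659 to 1.08 in set A and 0.469 to 0.791 in set B, with an exact permutation p of 0.569 and 0.532. Over the 4 ratios, the group ranges overlapped in the 11 rats in every case, and no p was under 0.05.

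**Figure D4:**
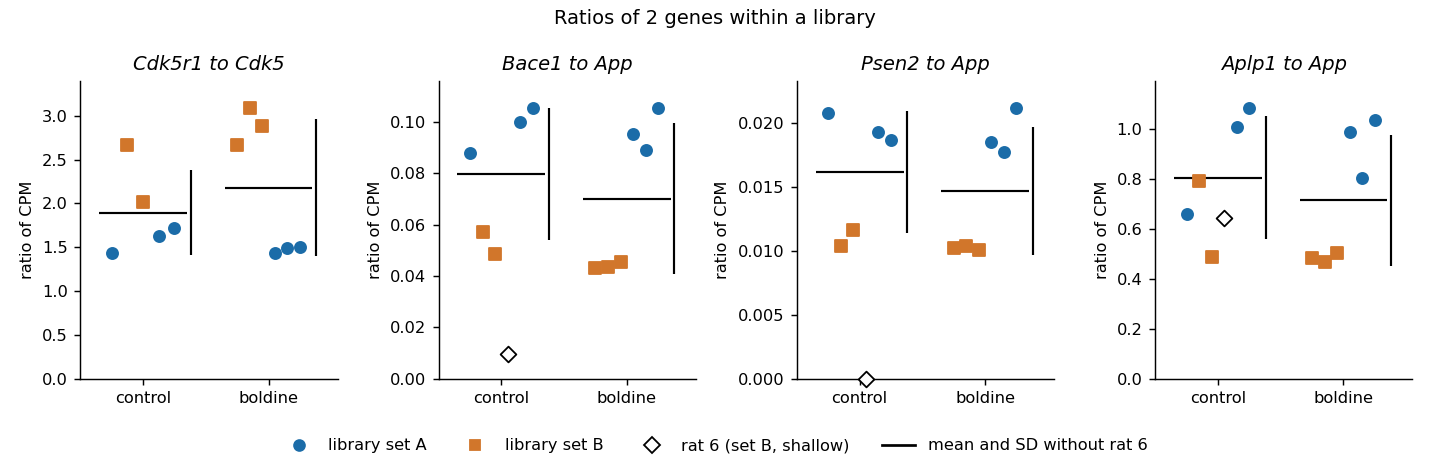
Ratio of the CPM of 2 genes within a library for each rat, by treatment, with symbols for the library set, an open diamond for rat 6 and lines for the mean and SD without it (axes start at 0). Cdk5r1 to Cdk5 is not defined in rat 6 and is not drawn there; the sets lie apart for Cdk5r1 to Cdk5, Bace1 to App and Psen2 to App.

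The other genes of these pathways were followed in 7 lists of 73 genes, of which 72 were in the table and all 72 were tested. In 12 rats edgeR gave none of them an unadjusted p under 0.05 (0 of 72, against 1.07% of all genes), and 32 were higher and 40 lower in blast-boldine rats, with a median log2 fold change of -0.02. Without rat 6 the count was again 0 of 72 (against 1.4% of all genes), and 39 were higher and 33 lower, with a median of 0.02. DESeq2 and limma-voom in 12 rats gave 0 of the 72 an unadjusted p under 0.05 as well, and in limma-voom 40 were higher and 32 lower, with a median of 0.02.

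For the 10 genes of microtubule-associated proteins besides tau, which include Map1b, Map2 and the stathmins, the direction depended on the fit. In edgeR all 10 had a negative log2 fold change when rat 6 was included, with a median of -0.17, while limma-voom on the same 12 rats had 5 higher and 5 lower, with a median of -0.04. Without rat 6, edgeR had 6 higher and 4 lower, with a median of 0.04, and with the set as a term 3 higher and 7 lower, with a median of -0.06. Rat 6 was the highest of the 12 rats for 5 of these 10 genes. Map1b, which acts in growing axons, had 14793 CPM in rat 6 and 2706 to 6558 CPM in the other rats, and its log2 fold change was -0.36 (SE 0.42) with rat 6 and 0.16 without it. Map1s, a shorter relative, was at -0.18 (SE 0.20) with rat 6 and -0.24 without it.

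Of the 15 tau kinases and CDK5 regulators, 9 were higher and 6 lower, with a median of 0.04, and without rat 6 10 were higher and 5 lower (0.03), which became 6 and 9 with the set as a term (-0.06). Gsk3a, the sister kinase of Gsk3b, had the smallest unadjusted p of the list in edgeR, 0.17, and without rat 6 it was 0.104, both with an adjusted p of 1. It had 120 ± 10.6 CPM (SD, n = 6) with boldine and 134 ± 14.6 CPM (SD, n = 6) without it, with a log2 fold change of -0.17 (SE 0.11). Dyrk1a, which encodes a kinase of tau and of many other proteins, was at 0.06 with rat 6 and 0.04 without it. Of the 11 tau phosphatases and their regulators, 7 were higher and 4 lower, with a median of 0.01, and 6 and 5 without rat 6 (0.03). Ppp2ca, the catalytic subunit of PP2A, was at 0.14 and 0.15 with and without rat 6. Set, which encodes an inhibitor of PP2A, was at 0.35 (SE 0.39) with rat 6, 0.36 without it, and 0.13 without it and with the set as a term.

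Among the 10 other genes of the APP family and the secretases, 4 were higher and 6 lower, with a median of -0.05, and 5 and 5 without rat 6 (-0.03). Aplp2, the third family member, was at -0.36 (SE 0.32) with rat 6, which had 2487 CPM against 594 to 959 CPM in the other rats, and at 0.07 without it. Aph1a, a subunit of gamma-secretase, was at -0.21 and -0.25. Of 15 adaptors and sorting proteins of APP, 7 were higher and 8 lower, with a median of -0.02, and 6 and 9 without rat 6 (-0.03). Of the genes for proteins that return APP from endosomes, Vps35 was at 0.19 with rat 6 and 0.11 without it, and Sorl1 was at 0.12 with rat 6 and -0.00 without it. Of 7 genes for degradation and clearance of amyloid-beta, 3 were higher and 4 lower both with rat 6 (median -0.02) and without it (-0.01). Apoe, which encodes the main apolipoprotein of the brain, was at -0.39 (SE 0.29) with rat 6, which had 4704 CPM, and at -0.05 without it. Mme, which encodes the protease neprilysin, was at 0.14 and 0.12.

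The synucleins are small proteins found at presynaptic terminals. Sncb (beta-synuclein) had 275 ± 47.3 CPM (SD, n = 6) with boldine and 300 ± 55.2 CPM (n = 5) in the blast-controls without rat 6, with a log2 fold change of -0.13 (SE 0.16) in edgeR without rat 6 and -0.07 with it. Sncg (gamma-synuclein) was low, at 6.58 ± 0.864 CPM and 5.62 ± 1.12 CPM, with a log2 fold change of 0.23 (SE 0.16) without rat 6 and 0.21 with it. Sncaip, which encodes synphilin, a synuclein-binding protein, had 20.7 ± 8.65 CPM and 18.3 ± 7.42 CPM, with a log2 fold change of 0.18 (SE 0.34) without rat 6 and 0.21 with it. The edgeR adjusted p was 1 for each of these 3 genes, and the group ranges overlapped for each.

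With the set as a term and without rat 6, edgeR gave 3 of the 72 list genes an unadjusted p below 0.05, all lower in blast-boldine rats and each with an adjusted p of 0.898, against 5.35% of all genes tested in either direction and 3.54% lower. Sncb had a log2 fold change of -0.18 (SE 0.06) and Map6, which stabilizes microtubules, -0.23 (SE 0.07). Gga1, which sorts the beta-secretase, was at -0.19 (SE 0.08). In set A, Sncb was 242, 242 and 217 CPM in blast-boldine rats and 262, 258 and 263 CPM in blast-controls. In set B it was 304, 312 and 334 CPM in blast-boldine rats and 375 and 345 CPM in the blast-controls other than rat 6. For Sncb the groups thus did not overlap within either set, and they overlapped when the sets were joined. Of all genes tested, 6.89% did not overlap in set A and 22.4% in set B, and the share in both sets was not counted. The values of Sncb by rat are given because of its unadjusted p in the same rats, and they are no separate support for it.

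**Figure D5:**
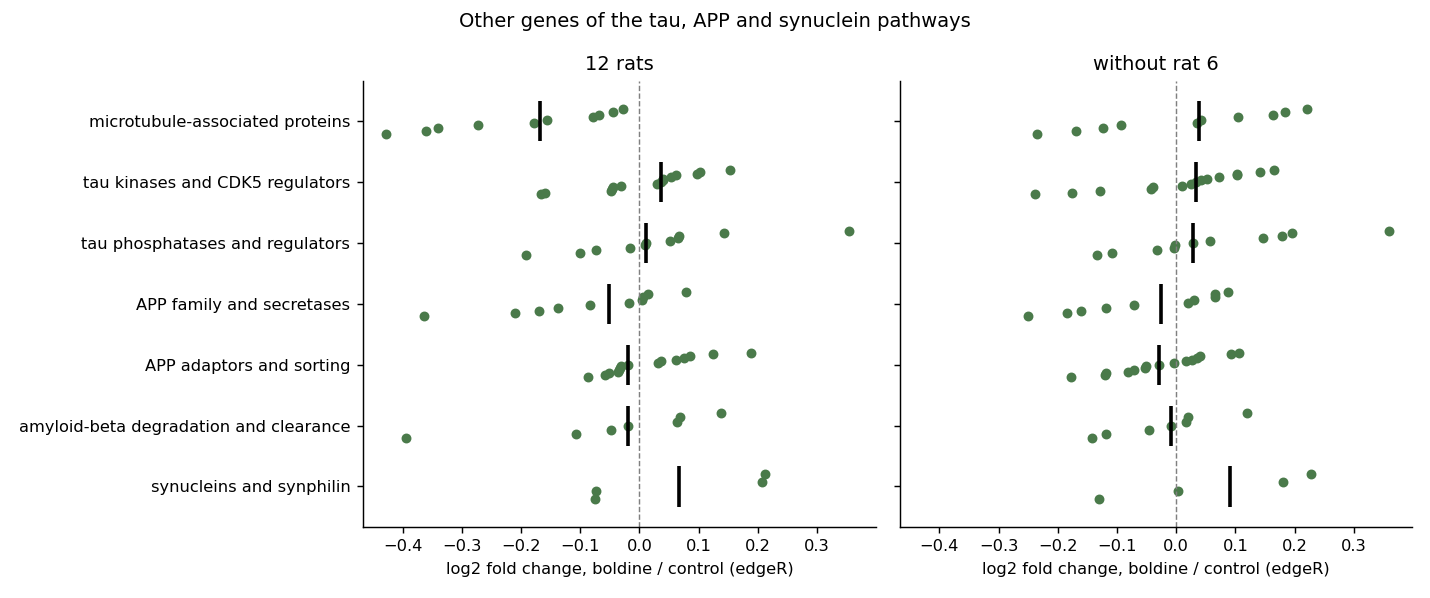
Log2 fold change of boldine over control from edgeR for each gene of the 7 lists, in 12 rats (left) and without rat 6 (right), with the median of each list as a bar. All 10 microtubule-associated proteins lie below 0 with rat 6 in this edgeR fit (5 of 10 in limma-voom), and 6 of them lie above 0 without it.

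The genes whose levels were most like those of each of the 8 were sought in 11 rats, by Pearson's r of log2 CPM after the mean of each set was subtracted. These correlations describe 11 libraries that share a scaling, and no p is given. The 3 genes named for each are the highest of the 12325 genes tested. How high r comes by chance in so wide a search was not tested. For Mapt they were Rac1 (0.940), Dnajc16 (0.887) and Nsf (0.885). For Gsk3b they were Zfp74 (0.923), Alpl (0.916) and Taok2 (0.903), and for Cdk5 they were Mrps7 (0.959), Tomm7 (0.955) and Ric8a (0.949). Cdk5r1 was most like Rplp0 (0.987), Rpl10 (0.979) and Mtch1 (0.976), the first 2 of which encode ribosomal proteins. App was most like Sqle (0.895), Hsph1 (0.895) and Stip1 (0.859), and the last 2 encode chaperone proteins. Aplp1 was most like Slc17a7 (0.978), the vesicular glutamate transporter of excitatory neurons, Kcnab2 (0.977) and Ddn (0.976). Bace1 was most like Arpc4 (0.958), Slc9a8 (0.956) and Trim32 (0.956), and Psen2 was most like Larp6 (0.953), Triap1 (0.947) and U2af1 (0.924).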

How the data were processed

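The authors made stranded libraries of total RNA after depletion of ribosomal RNA, cleaned the reads with HTStream, including removal of PCR duplicates, mapped them with STAR 2.7.11b to mRatBN7.2 (rn7), allowing up to 20 alignments per read, and counted reads on RefSeq exons by gene name and strand with featureCounts (Subread 2.0.1). The values deposited by the authors are these counts, without normalization, for 17494 genes in 12 libraries, of which 1804 genes had no count. Reads that align to several places could affect genes with near-identical copies. The exons of the 8 genes overlapped those of no other gene.

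Totals per library lay between 10148474 and 40850106 counts, apart from 74008 in blast-control rat 6; intervals and floors cover counting error only. The labels gave the groups, and the study's methods gave doses and times. The 8 genes and the lists were chosen with earlier results of these data known.

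Counts were tested with edgeR 4.0.16 in R 4.3.3: TMM normalization, filterByExpr at its minimum of 10 counts, treatment as the only term, 12 rats, two-sided quasi-likelihood test, Benjamini-Hochberg threshold 0.05. A prior count of 2 was added for log2 CPM. Group means of single genes and ratios were tested by exact two-sided permutation. Genes named were the 8, the 2 of each list with the smallest unadjusted p, any other list gene with an unadjusted p under 0.05, synuclein genes, and the 3 genes most like each of the 8; 1 list gene is not reported here. Map6 and Gga1 were named after their values were seen. Alternatives were DESeq2 1.42.0, limma-voom (limma 3.58.1), RLE size factors, no filter, another prior count (0.5), no TMM, the library set as a covariate, and leaving out each rat. The edgeR and permutation steps were tested on simulated data. Plots used matplotlib 3.10.9.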

Additional observations from a re-analysis of the deposited data

Results flagged for a closer look

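In 7 of the 24 sets of values tested for a sample far from the others (8 genes and 4 ratios, in each group of 6), the sample was blast-control rat 6, whose library held 74008 counts; chance alone marks about 1 in 20 such groups. The gap to the nearest rat, as a share of the range of the group, was compared with a critical value of 0.625. It was taken on log2 CPM with a prior count of 2 for the genes and on log2 ratios of these values. Rat 6 was the highest blast-control for App, with a gap of 0.631, and the lowest for Psen2 (0.932), Bace1 (0.659) and Cdk5 (0.926). In the ratios, computed with a prior count so that 0 counts have a value, rat 6 was the highest for Cdk5r1 to Cdk5 (0.896) and the lowest for Bace1 to App (0.674) and Psen2 to App (0.891). Psen2 and Cdk5 had 0 counts in rat 6, so their gaps and those of the ratios that include them rest on the value assigned to 0 counts. The share marked by chance is no measure for these. Bace1 had 2 counts in rat 6. Among the 5 blast-controls without rat 6, no gene or ratio passed the critical value of 0.71.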

How the results depend on the processing

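No gene passed an adjusted p of 0.05 in any fit, and none of the 8 genes had an unadjusted p under 0.05 in any fit of the boldine effect. The limits are the depth of rat 6, at which Psen2 at its level in any other rat and Cdk5 at its level in set B were not detectable, and sets inferred from library names and expression; the smallest adjusted p of any gene in any fit was 0.0677. No paired analysis was possible because the groups share no rat number. The number of genes with an unadjusted p under 0.05 was 132, and it was 474 with the set as a covariate, 670 with the set and without rat 6, 85 in DESeq2, 736 in DESeq2 with the set and without rat 6, and 254 with no filter. Leaving out each rat gave 85 to 214 genes, and it moved by over 1.5 times without blast-control rat 1 (87) or 5 (214) or blast-boldine rat 12 (85) or 17 (85). The list genes under that p numbered 0, and 1 with the set, 3 with the set and without rat 6, and 3 in DESeq2 with both. Leaving out each rat left it at 0.

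The direction of App turned without rat 6, also with the set as a covariate (0.0424 in edgeR and 0.0440 in DESeq2). Leaving out each rat gave edgeR log2 fold changes of -0.0576 to 0.0335 for Mapt, -0.344 to 0.0987 for App, -0.0775 to 0.0531 for Psen2, -0.116 to 0.0368 for Bace1, -0.0130 to 0.261 for Gsk3b, -0.220 to 0.0462 for Cdk5 and -0.0952 to 0.0532 for Cdk5r1. For Aplp1 they were -0.42 to -0.12, without a change of direction. The differences in mean log2 CPM ranged from -0.0525 to 0.0450 for Mapt (0.0269 without TMM), -0.255 to 0.0993 for App, -0.0548 to 1.45 for Psen2, -0.129 to 0.233 for Bace1, -0.0981 to 0.140 for Gsk3b, -0.218 to 1.59 for Cdk5 and -0.0652 to 0.134 for Cdk5r1. For the log2 ratios they ranged from -1.55 to 0.15 for Cdk5r1 to Cdk5, -0.23 to 0.46 for Bace1 to App and -0.15 to 1.68 for Psen2 to App. The permutation within the sets used the same differences, pooled over sets in which the groups had unequal numbers of rats once rat 6 was left out. Without rat 6 the pooled differences that turned were 0.0993 for App, -0.0548 for Psen2, -0.129 for Bace1, -0.218 for Cdk5 and -0.0652 for Cdk5r1. For the log2 ratios they were 0.153 for Cdk5r1 to Cdk5, -0.23 for Bace1 to App and -0.15 for Psen2 to App. Apart from the values that rest on rat 6, the cause of the turns was not tested.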

Other observations

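Some pairs of the 8 genes moved together differently within the library sets than across them, in 11 rats without rat 6, and other pairs moved much alike in both. These values of Pearson's r of log2 CPM describe libraries that share a scaling, and no p is given. Across the 11 rats App and Gsk3b had r = 0.97, App and Cdk5 had r = -0.91 and Gsk3b and Cdk5 had r = -0.96. After the mean of each set was subtracted these were 0.44, -0.21 and -0.71. Aplp1 and Cdk5r1 had r = 0.90 across the rats and 0.92 within the sets, and Aplp1 and Bace1 had 0.71 and 0.87. Cdk5 and its activator gene Cdk5r1 had 0.41 across the rats and 0.63 within the sets.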
